A study of Homo sapiens with 18 samples.

Results

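Oxidative phosphorylation couples the oxidation of NADH and succinate to ATP synthesis through 5 complexes of the inner mitochondrial membrane, and most of their subunits are encoded in the nucleus. The genes examined here are the protein-coding genes whose symbol begins NDUFA, NDUFB, NDUFC, NDUFS, NDUFV, UQCR, COX4, COX5, COX6, COX7, COX8 or ATP5, together with SDHA, SDHB, SDHC, SDHD and CYC1. This rule took 100 of the 19817 protein-coding genes in the expression table, and all 100 were present. Of these, 90 were counted as subunit genes, 37 of complex I, 4 of complex II, 10 of complex III, 19 of complex IV and 20 of ATP synthase. The other 10 were 8 complex I assembly factors (NDUFAF genes, which the prefix NDUFA also takes) and the readthrough genes NDUFC2-KCTD14 and ATP5MF-PTCD1. NDUFA4 and NDUFA4L2 were placed with complex IV, and COX7A2L (a supercomplex factor) and ATP5IF1 (the inhibitor of ATP synthase) were kept with their complexes. ATP5S was taken by its prefix and is also known as an assembly factor.

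The study silenced NAT10, the enzyme that writes N4-acetylcytidine (ac4C) on RNA, in PANC-1, a line from a human pancreatic ductal carcinoma. The control cells (shCtrl) carried an empty shRNA vector by the labels, where the study's methods list a non-targeting shRNA, and the knockdown cells (shNAT10) an shRNA against NAT10, both delivered by lentivirus as stable lines, and the sources used here do not give which of the NAT10 shRNAs of the study was used. RNA-seq was made from 3 libraries per group, and acRIP-seq, in which fragmented RNA is pulled down with an antibody against ac4C, from 3 IP and 3 input libraries per group with 1 deposited list of peaks per group. Nothing in the labels says that the libraries came from separate cultures, so p-values measure the spread between these samples, which may be technical.

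Complex I oxidises NADH and passes its electrons to ubiquinone, complex II does the same for succinate and belongs to the tricarboxylic acid cycle as well, complex III hands electrons on to cytochrome c, and complex IV passes them to oxygen. Complexes I, III and IV pump protons, and ATP synthase uses the gradient. In each assembly, core subunits carry the redox centres or catalytic sites, and accessory subunits surround them. The mitochondrial chromosome encodes part of the core of complexes I and III, the core of complex IV and some subunits of ATP synthase, so that transcripts of both genomes are needed.

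Expression is given as FPKM, a fragment count divided by gene length and by library size. The recovered totals were 15831720 to 23521762 reads per library. For 96.7% of the genes above 0 the length behind the FPKM was that of the longest annotated transcript. A gene whose longest isoform is little used, as may hold for SDHC (13566 bases), then has a low value for its reads. Levels of single isoforms were not measured. NAT10 fell from 31.6, 27.7 and 28.6 FPKM in the shCtrl libraries to 7.92, 8.43 and 7.90 FPKM in the shNAT10 libraries (log2 fold change -1.84, standard error 0.08, adjusted p = 3.85e-05 by limma), so the labels and the targeted gene go together. Of 7 markers of ductal epithelial cells, all 7 passed the filter on expression (4 lower and 2 higher in shNAT10 cells), with summed levels of 2831 to 3789 FPKM in shCtrl and 1540 to 1721 FPKM in shNAT10 libraries. The summed levels of the markers of acinar, endocrine, immune, endothelial and muscle cells did not exceed 0.32 FPKM in any library, and of 4 fibroblast markers COL1A1 alone was above 1 FPKM (17.3 to 34.0 FPKM).

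One library stands apart in a way that bears on these genes. In shCtrl replicate 2, genes in the shortest quartile lay 0.27 above the mean of the libraries on the log2 scale and genes in the longest quartile 0.26 below it. Subunit genes are short, with a median length of 1426 bases against 3298 for all genes tested. Of the 80 subunit genes that could be tested, 68 had their highest value in shCtrl replicate 2, against 33.1% of all 12982 genes tested and 71.5% of the 1797 protein-coding genes under 2000 bases. Relative to the mean of the 6 libraries, the median subunit gene lay at 0.37 in that library and between -0.11 and 0.01 in the other 5. The counts of each complex are therefore given with and without it, and also after a correction of every library for transcript length and GC content.

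**Figure D1:**
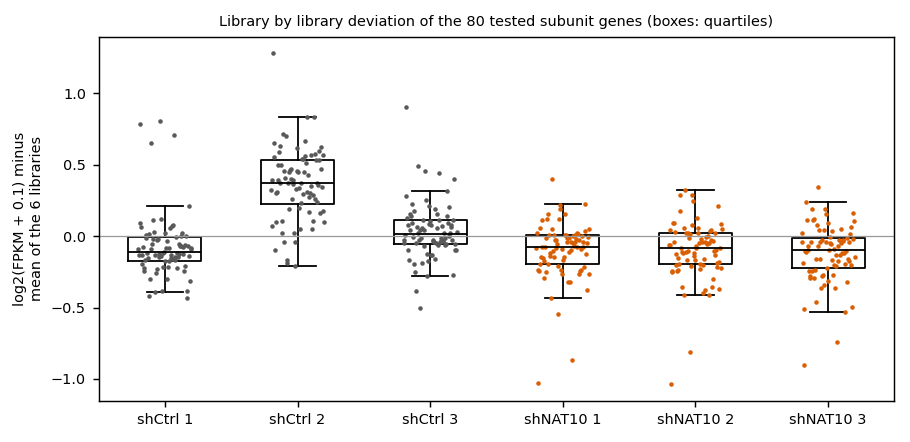
Deviation of the 80 tested subunit genes in each library, as log2(FPKM + 0.1) minus the mean of the 6 libraries (y axis), with 1 point per gene, boxes at the quartiles and lines at the median. The median is at 0.37 in shCtrl replicate 2 and between -0.11 and 0.01 in the others.

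The subunit genes were transcribed at high and uneven levels. Among the 80 that passed the filter, mean FPKM in shCtrl cells ran from 1.32 (NDUFA11) to 551 (ATP5F1B), with a median of 43.2 against 8.01 over all genes tested. Together the 90 genes made up 1.4% of all FPKM in shCtrl and 1.34% in shNAT10 cells. In complex I the highest gene was NDUFS5, an accessory subunit, at 302, 420 and 321 FPKM in shCtrl and 279, 274 and 276 FPKM in shNAT10 libraries. The lowest was NDUFA7, at 0.384, 0.247 and 0.354 FPKM and then 0.105, 0.171 and 0.188 FPKM, a value from at most 5 reads per library. AC010323.1, annotated on the same strand, covers every coding base of NDUFA7, so reads of the pair may have been split or set aside in counting. In complex II, SDHB (the iron-sulfur subunit) was highest and SDHC (a membrane anchor) lowest, in complex III, UQCRH (the hinge protein) and UQCRHL, its close copy, and in ATP synthase, ATP5F1B (the catalytic beta subunit) and ATP5MGL, which stayed at or under 0.354 FPKM.

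**Figure D2:**
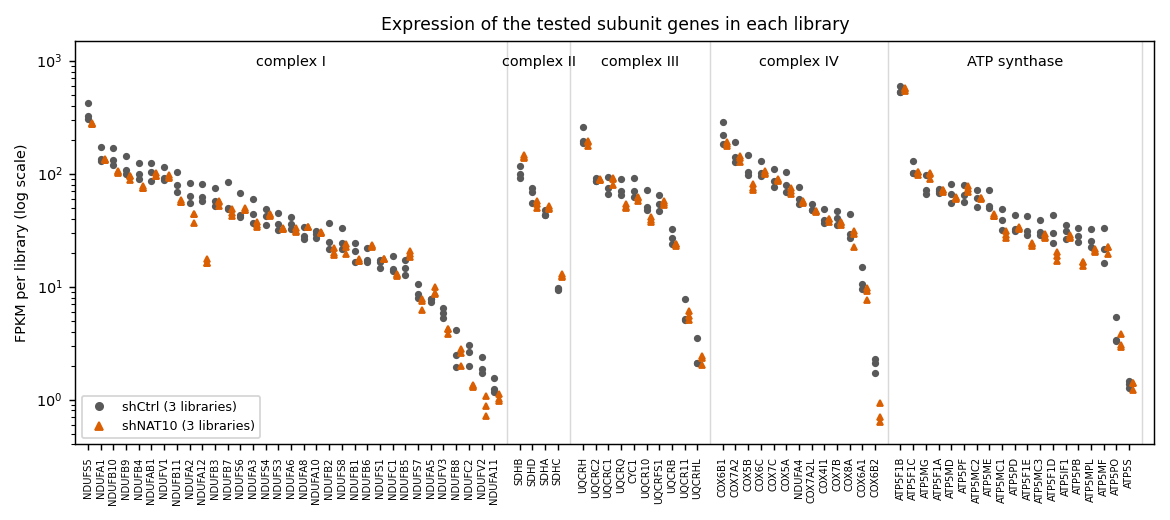
Expression of 79 of the 80 tested subunit genes in FPKM per library (y axis, log scale), ordered within each complex by the shCtrl mean, with shCtrl libraries as circles and shNAT10 libraries as triangles. ATP5F1B, NDUFS5, COX6B1 and UQCRH lead their complexes, and NDUFA12 shows a wide gap between the groups.

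Several low values fall on genes whose coding bases another same-strand gene shares, which holds for more than 40% of the coding bases of 15 subunit genes. They include UQCR11 (100%), COX6B2 (100%), NDUFV2 (91.7%), NDUFC2 (86.8%), NDUFA9 (85.1%), NDUFB8 (83.9%), NDUFA13 (70.0%) and ATP5PO (69.0%). Further, 46 subunit genes have at least 1 annotated pseudogene named after them, up to 17 for COX6C. How far the counting moved reads among these copies was not tested, and the values of these genes are uncertain.

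Most paralogs known from muscle, lung and testis were near absent, COX6B2 (described with complex IV) having a mean of 2.05 FPKM in shCtrl cells. COX7A1 (heart and muscle), COX7B2 and COX8C (testis) were listed at 0 in all 6 libraries. COX4I2 was listed at 0 in 5 libraries and at 0.0742 FPKM in shNAT10 replicate 2, and COX6A2 at 0 in 5 libraries and 0.225 FPKM in shCtrl replicate 2. Their widely expressed partners were present, COX4I1 at 36.4, 49.0 and 38.6 FPKM in shCtrl libraries, COX6A1 at 10.6, 14.8 and 9.59 FPKM, COX7A2 at 127, 192 and 139 FPKM, COX7B at 35.3, 46.3 and 40.3 FPKM and COX8A at 26.8, 44.1 and 29 FPKM. The markers of skeletal and heart muscle were as low, with 3 of 4 at 0 throughout. NDUFA4 was at 54.2, 75.5 and 60.1 FPKM and its paralog NDUFA4L2, known as a hypoxia gene, at 0.288, 0.741 and 0.673 FPKM. The 3 genes for the c subunit of the ATP synthase rotor, which encode the same mature protein, were on a similar level, with shCtrl means of 39.8 ± 8.51 (SD, n = 3) for ATP5MC1, 61.0 ± 10.2 for ATP5MC2 and 32.7 ± 5.37 FPKM for ATP5MC3. None of the 3 passed the test between the groups, with adjusted p-values of 0.0531, 0.976 and 0.171 by limma. ATP5MC1 was called lower without shCtrl replicate 2 (adjusted p = 0.0426) and after the correction (0.00882), and ATP5MC2 was called higher after the correction alone (log2 fold change 0.19, adjusted p = 0.00843).

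The response to the knockdown was asked gene by gene, with limma on log2(FPKM + 0.1) over the 12982 genes with at least 1 FPKM in at least 3 libraries and Benjamini-Hochberg adjustment over all of them. The 10 subunit genes not tested were NDUFA7, NDUFA9, NDUFA13, NDUFA4L2, COX4I2, COX6A2, COX7A1, COX7B2, COX8C and ATP5MGL. Of the 80 tested, 15 were lower in shNAT10 cells at an adjusted p under 0.05 (18.8%, against 21.2% of all genes tested), 5 were higher (6.25%, against 20.8%) and 60 did not pass. Past 2-fold, 3 were lower (3.57% of all genes tested) and 0 were higher (2.91% of all genes). At an unadjusted p under 0.05 the limma fit gave 21 lower and 6 higher subunit genes, and voom on the recovered reads gave 17 and 5 after adjustment, with 0 higher past 2-fold in either. The counts of 0 given below for complexes II to IV, ATP synthase and the mitochondrially encoded subunits were also 0 in that direction at an unadjusted p and with voom, but those of higher genes in complex III and ATP synthase were not 0 in the other settings given with them. At 71 of the 80 genes the fitted change was smaller than 1.5-fold. Values of the groups did not overlap for 24 genes that were lower and 8 that were higher, where the shares over all genes tested were 28.6% and 27.9%. The median log2 fold change was -0.17, against -0.01 for all genes tested and -0.20 for the 1797 short protein-coding genes, of which 30.6% were lower and 9.96% higher.

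This picture shifted with the library that stands apart. Without shCtrl replicate 2, 19 subunit genes were lower and 12 higher, where 25.6% and 25.4% of all genes tested were, and the median was -0.05. After the correction for length and GC content, 16 were lower and 15 higher, with a median of -0.04. With the values rescaled to TPM, which moved the median of all genes from -0.01 to 0.10, 15 were lower and 10 higher, and with quantile normalization 18 and 8. Leaving out any other single library also moved the counts, to 31 lower and 3 higher without shCtrl replicate 1, and to between 6 and 9 lower and 3 higher without shCtrl replicate 3 or any one of the shNAT10 libraries. Shares over all genes tested were taken for the main fit and for the fit without shCtrl replicate 2 alone. Counts in the other settings, by complex as well, have no such share beside them and cannot be read as many or few. All 15 lower genes were also called lower without shCtrl replicate 2, and 14 of them after the correction. Of the 5 higher genes, 5 and 3 were called again. Called in the same direction under each alternative in which they were tested were 6 lower genes, ATP5PB, COX6B2, NDUFA12, NDUFC2, NDUFV2 and NDUFV3, and 2 higher genes, SDHB among them. Of these, COX6B2 passed the filter through the shCtrl group alone and NDUFV2 mainly so, and both are among the 3 genes past 2-fold, so that a fall was a condition of their being tested or nearly so.

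**Figure D3:**
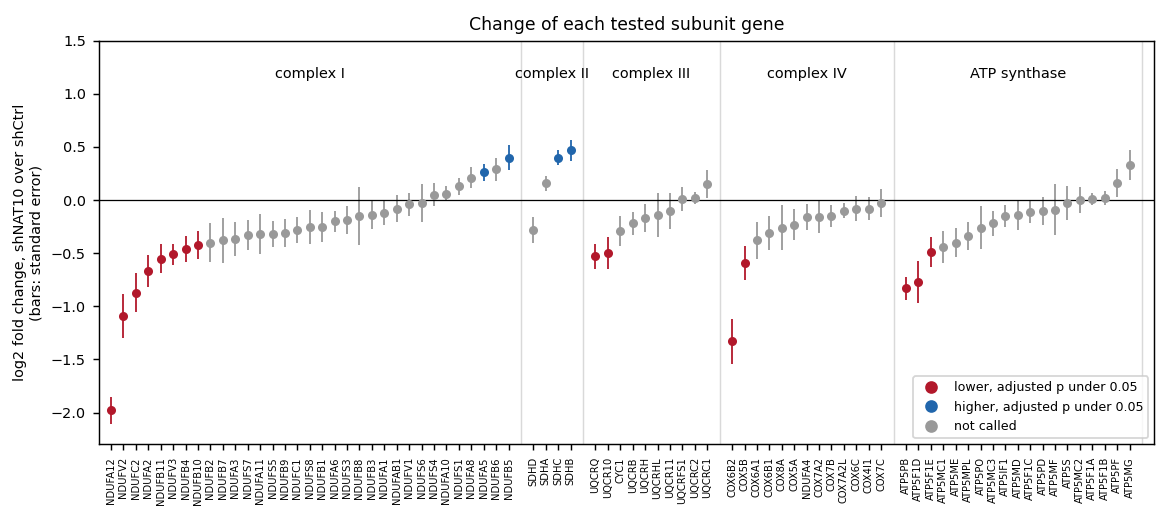
Log2 fold change of shNAT10 over shCtrl (y axis) with its standard error for 79 of the 80 tested subunit genes, by complex, in red for lower and blue for higher genes at an adjusted p under 0.05 and in grey for genes not called. NDUFA12 lies lowest at -1.98, and SDHB is at 0.47.

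In complex I, 8 of 34 tested genes were lower and 3 higher, with a median log2 fold change of -0.25. Without shCtrl replicate 2 these were 9, 6 and -0.12, and after the correction for length and GC content 7, 8 and -0.05. NDUFA12, an accessory subunit at the base of the peripheral arm, was at 56.7, 80.1 and 61.7 FPKM in shCtrl and at 16.1, 16.0 and 17.6 FPKM in shNAT10 libraries. Every shNAT10 value lay far under every shCtrl value, a 3.94-fold fall (log2 fold change -1.98, standard error 0.13, adjusted p = 0.000112 by limma). It rests on 207 to 1318 recovered reads per library, shares no coding base with another gene on its strand, and its log2 fold change was -1.83 without shCtrl replicate 2 and -1.75 after the correction. The assembly factor NDUFAF2 is a paralog of NDUFA12 that sits at the same place in the complex until NDUFA12 takes it over. It fell as well, from 16.0, 21.3 and 17.8 FPKM to 6.76, 4.58 and 6.06 FPKM (log2 fold change -1.66, standard error 0.16, adjusted p = 0.000456 by limma), again with no overlap between the groups. The genes lie apart, NDUFA12 on chromosome 12 and NDUFAF2 on chromosome 5.

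Among the rises in complex I were those of NDUFB5 (14.8 ± 2.24 to 19.4 ± 1.16 FPKM, SD, n = 3) and NDUFA5 (7.60 ± 0.294 to 9.11 ± 0.617 FPKM), both accessory subunits, with adjusted p-values of 0.0318 and 0.0373 by limma. NDUFA5 did not pass after the correction for length and GC content (adjusted p = 0.438).

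The falls in complex I after NDUFA12 were those of NDUFV2 and NDUFC2, both at low FPKM. NDUFV2, a core subunit of the NADH-oxidising module, was at 2.39, 1.73 and 1.85 FPKM and then at 0.872, 0.710 and 1.08 FPKM (log2 fold change -1.09, standard error 0.21, adjusted p = 0.00707 by limma). These values come from 13 to 41 recovered reads per library. NDUFC2, a membrane arm subunit, went from 1.99, 3.04 and 2.62 FPKM to 1.33 ± 0.023 FPKM (SD, n = 3) (log2 fold change -0.87, adjusted p = 0.00751 by limma). As given above, most of the coding bases of both genes are shared, for NDUFC2 with its readthrough gene, which was listed at 0 in every library. NDUFV2 passed the filter mainly through the shCtrl group. NDUFA2, NDUFB11, NDUFV3, NDUFB4 and NDUFB10, accessory subunits spread over both arms, had log2 fold changes from -0.67 to -0.42. NDUFB10 did not pass after the correction (log2 fold change -0.07, adjusted p = 0.145). Among the core subunits, NDUFS1 (0.13), NDUFS3 (-0.19), NDUFS7 (-0.33), NDUFS8 (-0.25) and NDUFV1 (-0.04) did not pass the test on that scale, with adjusted p-values from 0.0911 to 0.774 by limma. After the correction NDUFV1 was called higher (log2 fold change 0.20, adjusted p = 0.00256 by limma).

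**Figure D4:**
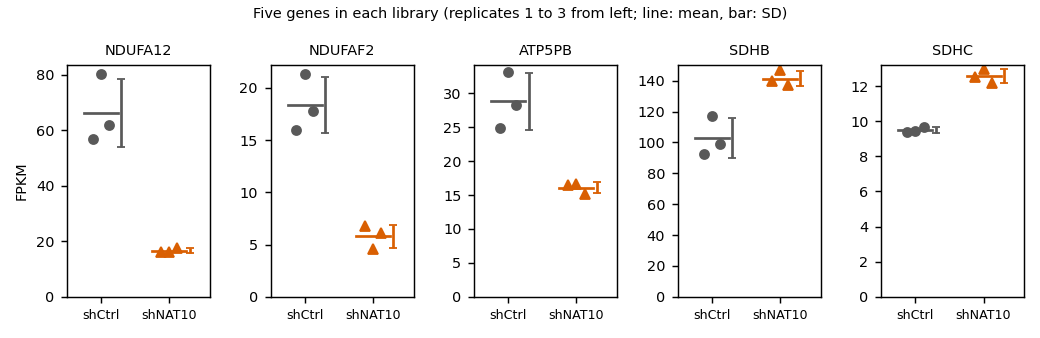
FPKM (y axis, from 0) of NDUFA12, NDUFAF2, ATP5PB, SDHB and SDHC in the shCtrl libraries (circles) and shNAT10 libraries (triangles), with the mean as a line and the SD as a bar. In each of the 5 genes the groups do not overlap.

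Complex II was the complex whose median lay above 0, at 0.28, with 2 of 4 genes higher and 0 lower. Without shCtrl replicate 2 there were 3 higher and 0 lower, and after the correction 2 and 0. SDHB was at 92.3, 117 and 99.1 FPKM in shCtrl and 140, 147 and 137 FPKM in shNAT10 libraries (log2 fold change 0.47, standard error 0.10, adjusted p = 0.00845 by limma). SDHC was at 9.39, 9.44 and 9.70 FPKM and then at 12.5, 13.0 and 12.2 FPKM (log2 fold change 0.40, standard error 0.07, adjusted p = 0.00317 by limma). In both genes all shNAT10 values lay above all shCtrl values. SDHC did not pass after the correction for length and GC content (log2 fold change 0.16, adjusted p = 0.38), while SDHB did (0.64). SDHA, the flavoprotein that oxidises succinate, was at 44.7 ± 2.76 and 49.9 ± 1.37 FPKM (SD, n = 3, adjusted p = 0.101 by limma), and it was called higher without shCtrl replicate 2 (adjusted p = 0.00754). SDHD, the second anchor, was at 65.5 ± 10.1 and 53.5 ± 3.72 FPKM (adjusted p = 0.104 by limma), with 65.8% of its coding bases shared with AP002884.3.

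In complex III, 2 of 10 genes were lower, both of them small accessory subunits, and 0 higher. Without shCtrl replicate 2, and also after the correction, 2 were lower and 1 higher, the latter being UQCRC1, a core protein (log2 fold change 0.15, and 0.29 and 0.38 in these settings, with adjusted p-values of 0.38, 0.0157 and 5.8e-05 by limma). UQCRQ was at 64.4, 89.8 and 70.5 FPKM and then at 49.4, 54.0 and 51.0 FPKM (log2 fold change -0.53, standard error 0.12, adjusted p = 0.0139 by limma). UQCR10 was at 47.5, 71.5 and 50.2 FPKM and then at 38.9, 41.5 and 37.6 FPKM (log2 fold change -0.50, standard error 0.15, adjusted p = 0.0359 by limma). The groups did not overlap for either gene. Without shCtrl replicate 2 and after the correction the log2 fold changes were -0.39 and -0.30 for UQCRQ and -0.31 and -0.29 for UQCR10. Of the subunits that carry electrons, CYC1 (cytochrome c1) was at 74.4 ± 15.1 and 60.3 ± 2.76 FPKM and UQCRFS1 (the Rieske iron-sulfur protein) at 55 ± 8.60 and 54.9 ± 2.11 FPKM (SD, n = 3, adjusted p = 0.136 and 0.966 by limma). UQCRC2, the other core protein, was at 87.3 ± 3.05 and 88.2 ± 0.76 FPKM. UQCRH was at 213 ± 38.8 and 187 ± 8.94 FPKM (adjusted p = 0.317 by limma) and UQCRHL at 2.56 ± 0.804 and 2.26 ± 0.228 FPKM, where reads of this near-identical copy cannot be told apart from those of UQCRH with certainty.

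In complex IV, 2 of 13 tested genes were lower and 0 higher, and so they were without shCtrl replicate 2 and after the correction. COX5B, a subunit on the matrix side, was at 97.0, 147 and 103 FPKM and then at 73.9, 80.4 and 71.9 FPKM (log2 fold change -0.59, standard error 0.16, adjusted p = 0.0205 by limma). Its log2 fold change was -0.41 without shCtrl replicate 2 and -0.31 after the correction. COX6B2, the testis form of subunit 6B, was at 2.10, 2.30 and 1.73 FPKM and then at 0.637, 0.939 and 0.706 FPKM. Since it passed the filter through the shCtrl group alone, its log2 fold change of -1.33 is given as a description, and all its coding bases are shared with AC020922.1. Its partner COX6B1 was at 181, 289 and 219 FPKM in shCtrl and 189, 181 and 175 FPKM in shNAT10 libraries, where the groups overlap (adjusted p = 0.159 by limma). The remaining 10 genes had log2 fold changes from -0.38 (COX6A1) to -0.03 (COX7C).

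In ATP synthase, 3 of 19 tested genes were lower and 0 higher. Without shCtrl replicate 2, 6 were lower and 2 higher, and after the correction 5 and 4. ATP5PB, subunit b of the peripheral stalk, was at 24.9, 33.2 and 28.3 FPKM and then at 16.5, 16.6 and 15.2 FPKM, a 1.77-fold fall with no overlap (log2 fold change -0.83, standard error 0.11, adjusted p = 0.00151 by limma). ATP5F1D and ATP5F1E, which belong to the central stalk, fell from 32.4 ± 9.67 to 18.5 ± 1.72 FPKM and from 33.7 ± 7.12 to 23.6 ± 0.88 FPKM (SD, n = 3, adjusted p = 0.0199 and 0.0278 by limma). The log2 fold change of ATP5F1D was -0.77, or -0.54 without shCtrl replicate 2 and -0.39 after the correction. That of ATP5F1E was -0.49, or -0.33 and -0.54. The alpha and beta subunits of the catalytic head did not pass the test. ATP5F1B was at 527, 596 and 529 FPKM in shCtrl and 558, 568 and 540 FPKM in shNAT10 libraries (adjusted p = 0.882 by limma), and ATP5F1A at 70.2 ± 2.66 and 70.9 ± 1.64 FPKM (adjusted p = 0.872). After the correction ATP5F1B was called higher (log2 fold change 0.14, adjusted p = 0.00757). ATP5IF1 was at 30.8 ± 4.09 and 27.6 ± 0.73 FPKM (adjusted p = 0.277). ATP5MG, a membrane subunit, was at 66.0, 96.6 and 71.4 FPKM and then at 101, 100 and 90.1 FPKM (adjusted p = 0.0999 by limma). It passed without shCtrl replicate 2 (adjusted p = 0.00072) and after the correction, which keeps that library (log2 fold change 0.44, adjusted p = 0.00275). Of its coding bases, 68.9% are shared with AP001267.5.

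Summed over its genes, complex I came to 1602, 2249 and 1747 FPKM in the shCtrl and 1548, 1560 and 1528 FPKM in the shNAT10 libraries. The sums were 199, 248 and 220 FPKM and then 254, 264 and 255 FPKM for complex II, the one complex whose shNAT10 sums all lay above its shCtrl sums. SDHB weighs most there, with means of 103 and 141 FPKM, where the sums had means of 223 and 257 FPKM. SDHA (44.7 and 49.9 FPKM) and SDHC (9.51 and 12.6 FPKM) also had higher means in shNAT10 cells. SDHD (65.5 and 53.5 FPKM) went the other way. For complex III the sums were 591, 802 and 633 FPKM and then 608, 615 and 574 FPKM. The difference between the means was -17.2% for complex I, 15.7% for complex II, -11.2% for complex III, -15.3% for complex IV and -4.9% for ATP synthase. Leaving out shCtrl replicate 2 gave -7.7%, 22.8%, -2.1%, -4.4% and 2.8%. Over all 90 genes the difference was -11.4%, or -2.1% without that library.

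Genes that act beside the subunits were counted on fixed lists, to be read against the shares over all genes tested (21.2% lower and 20.8% higher, or 25.6% and 25.4% without shCtrl replicate 2). Of 51 tested assembly factors (the NDUFAF genes among them), 16 were lower and 5 higher, with a median log2 fold change of -0.12, and without shCtrl replicate 2 these counts were 17 and 10. Besides NDUFAF2, SDHAF2, which attaches the flavin to SDHA, fell past 2-fold, from 3.54, 3.94 and 2.57 FPKM to 1.83, 1.29 and 1.22 FPKM (log2 fold change -1.16, adjusted p = 0.00542 by limma). COX17, a copper chaperone for complex IV, rose from 28.6, 38.3 and 31.9 FPKM to 64.0, 64.8 and 63.8 FPKM (log2 fold change 0.97, adjusted p = 0.000686 by limma). Among the NDUFAF genes, NDUFAF2, NDUFAF4 and NDUFAF8 were lower and the other 5 did not pass. NDUFAF3 was called higher without shCtrl replicate 2 (log2 fold change 0.54, adjusted p = 0.00104) and after the correction (0.65, adjusted p = 4.65e-06).

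The subunits that the mitochondrial chromosome encodes were lower for 7 of 13 genes and higher for 0, against 21.2% and 20.8% of all genes tested (9 and 0 without shCtrl replicate 2). Their median log2 fold change was -0.35. MT-ND3 was at 1544, 2153 and 1663 FPKM and then at 1079, 1002 and 1084 FPKM (log2 fold change -0.75, adjusted p = 0.00377 by limma), while MT-CO1 was at 10472, 10465 and 10680 FPKM and then at 10028, 9764 and 9916 FPKM (adjusted p = 0.314). Of 12 regulators of mitochondrial gene expression, 3 were lower and 4 higher, with or without shCtrl replicate 2. TFAM, which packages and transcribes the mitochondrial chromosome, fell from 21.2, 18.6 and 21.7 FPKM to 10.6, 11 and 12.5 FPKM (log2 fold change -0.84, adjusted p = 0.000756 by limma), and YY1 rose from 15.3, 14.6 and 14.9 FPKM to 26.5, 24.2 and 26.4 FPKM (0.78, adjusted p = 0.000281). Of 18 tested protein import genes, 6 were lower and 2 higher, TOMM22, a receptor of the outer membrane, among the latter (log2 fold change 1.63, adjusted p = 7.78e-05 by limma). Of 18 genes of the tricarboxylic acid cycle, 3 were lower and 3 higher, and of 17 for electron carriers and ubiquinone synthesis, 3 and 5 (3 and 7 without shCtrl replicate 2).

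The promoters of respiratory genes are known for sites of NRF1, ETS family factors such as GABP, and YY1, so the 250 bases before the start of each gene were searched on both strands in RefSeq sequences (GRCh38.p14), where 70 subunit genes had an entry. The letters CGCANGCG (NRF1) were present in 24 promoters (34.3%, against 8.69% of 35116 promoters), CCGGAAG (ETS) in 17 (24.3%, against 8.52%) and GCCATNTT (YY1) in 4 (5.71%, against 3.86%). The 35116 are all entries of the set, not limited to 1 per gene or to expressed genes, and were not matched for base content. At least 1 of the 3 was present in 38 of the 70 promoters (54.3%, against 18.9%). Among the tested genes it was present in 4 of 13 lower genes, 1 of 2 higher genes and 30 of 49 genes not called. The groups of called genes are small, and these counts were not tested. Promoters of a gene that fell and of one that rose are shown for comparison, with matches in capitals.
NDUFA12 promoter, chr12:95003698-95003947, strand -: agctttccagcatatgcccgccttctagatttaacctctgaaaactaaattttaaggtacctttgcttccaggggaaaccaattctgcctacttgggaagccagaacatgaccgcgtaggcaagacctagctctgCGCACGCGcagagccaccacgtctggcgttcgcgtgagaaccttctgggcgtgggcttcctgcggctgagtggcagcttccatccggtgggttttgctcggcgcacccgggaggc
SDHB promoter, chr1:17054033-17054282, strand -: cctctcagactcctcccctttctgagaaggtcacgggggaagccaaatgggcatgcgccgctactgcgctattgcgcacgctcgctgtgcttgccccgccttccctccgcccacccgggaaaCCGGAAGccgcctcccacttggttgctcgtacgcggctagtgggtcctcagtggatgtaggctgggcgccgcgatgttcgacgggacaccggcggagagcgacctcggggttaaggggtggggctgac
NDUFA12 holds 1 NRF1 match, and SDHB 1 ETS match. A match is a description of letters and not of a bound site.

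The acRIP-seq lists show where ac4C-enriched fragments were called. Among the 90 subunit genes, 46 had a peak in shCtrl cells, 47 in shNAT10 cells and 32 in both, and 29 had none. Among the 80 with a mean of at least 1 FPKM in shCtrl cells, 43 (53.8%) had a shCtrl peak, 44 (55%) a shNAT10 peak and 30 (37.5%) both, where the shares over all 10986 protein-coding genes at that level were 55.6%, 53.9% and 38.6%. At a mean of 20 to 100 FPKM and a length under 2000 bases, 15 of 31 subunit genes (48.4%) and 49.9% of 605 genes had a shCtrl peak. For a shNAT10 peak these were 18 of 31 (58.1%) and 46.3%, and for both 11 of 31 (35.5%) and 28.4%. With 1 list per group, no test between the groups against replicates can be made. Of the 14 subunit genes at 100 FPKM or more, 6 had a shCtrl peak (42.9%) and 4 a shNAT10 peak (28.6%), against 63.4% of 456 genes in each list. These 14 genes are short (at most 1839 bases, ATP5F1B), while the 456 are of any length. Short genes had peaks less often. At 20 to 100 FPKM and any length, the shares were 70.2% (shCtrl) and 67.9% (shNAT10), against 49.9% and 46.3% under 2000 bases. Whether peaks on the 14 genes are few for their length was not tested. ATP5F1B, NDUFS5 and COX6B1 carried no peak in either list, nor did NDUFA12, SDHB and UQCRQ among the genes that changed. By complex, 20 of 37 complex I genes had a shCtrl peak and 21 a shNAT10 peak, 3 and 3 of 4 in complex II, 4 and 5 of 10 in complex III, 9 and 7 of 19 in complex IV, and 10 and 11 of 20 in ATP synthase.

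The peaks on these genes had a lower median enrichment than the whole lists. That difference was smaller among genes at 20 FPKM or more, but not at lower levels. The 79 shCtrl peaks had a median fold enrichment of IP over input of 9.04 (quartiles 4.54 and 42.2) against 49.3 over the whole list, and the 75 shNAT10 peaks 12.9 against 45.2. Enrichment falls with the level of the gene over all peaks on protein-coding genes, from a median of 331 under 1 FPKM to 82.5 at 1 to 20 FPKM and 12.5 at 20 FPKM or more in shCtrl cells. In the last class the 63 peaks on subunit genes had a median of 7.78. In the shNAT10 list the 55 peaks on subunit genes of that class had a median of 10.1, against 11.6 over all peaks of the class. At 1 to 20 FPKM the subunit medians were 12.7 (12 peaks) against 82.5 in shCtrl and 15.7 (16 peaks) against 72.2 in shNAT10 cells. Under 1 FPKM, with 4 peaks in each list, they were 20.9 against 331 and 41.5 against 320. The highest values were those of SDHC in shCtrl (2530) and COX7C in shNAT10 cells (3200), both in the 3′ UTR. NDUFA4L2, at under 1 FPKM, had a peak in both lists, of 1350 and 143, at different places.

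Of the 79 shCtrl peaks, 23 overlapped a shNAT10 peak by at least 1 base (29.1%, 95% Wilson interval 20.3% to 39.9%), and of the 75 shNAT10 peaks, 25 (33.3%) overlapped a shCtrl peak. The shares over the whole lists were 25.6% and 27.4%. Placed by their midpoint on the coding transcript with the longest CDS, 45 of 55 shCtrl peaks on subunit genes lay in the CDS (81.8%, 69.7% to 89.8%), 9 in the 3′ UTR and 1 in the 5′ UTR, against 62.6% in the CDS over all 12758 placed peaks. The other peaks on subunit genes had midpoints outside that transcript and were not placed. By summed lengths, the CDS makes up 34.5% of the transcripts of the subunit genes with a shCtrl peak and 50.1% of those of all such genes. Long transcripts, such as that of SDHC with 13566 bases, weigh most in these sums. In shNAT10 cells, 39 of 52 lay in the CDS (75%, 61.8% to 84.8%), against 62.2% of all. These intervals cover counting error only.

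The coding bases that a shCtrl and a shNAT10 peak have in common are shown for NDUFB4, which was lower in shNAT10 cells, and ATP5F1A, which did not pass the test. Positions are those of the peaks on GRCh38, the sequence is that of the transcript, and capitals mark a C followed by any 2 bases 4 times in a row, the repeat to which ac4C has been tied.
NDUFB4, chr3:120596369-120596579, strand +: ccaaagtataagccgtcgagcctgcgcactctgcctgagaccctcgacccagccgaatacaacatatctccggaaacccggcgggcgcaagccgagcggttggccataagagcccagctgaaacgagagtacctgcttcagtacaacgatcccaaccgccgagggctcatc
ATP5F1A, chr18:46087020-46087260, strand -: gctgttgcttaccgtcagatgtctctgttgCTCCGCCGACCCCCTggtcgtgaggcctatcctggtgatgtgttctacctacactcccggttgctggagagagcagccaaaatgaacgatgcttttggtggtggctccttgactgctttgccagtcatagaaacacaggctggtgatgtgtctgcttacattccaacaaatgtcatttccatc
The repeat occurs in the ATP5F1A stretch and not in that of NDUFB4. Fold enrichment in shCtrl and shNAT10 cells was 8.74 and 2.62 for NDUFB4 and 171 and 99.0 for ATP5F1A. It is scaled within each list, so the lists are not on 1 scale. Over the peaks that could be read in full on the transcript, 14 of 25 shCtrl peaks (56.0%, 37.1% to 73.3%) and 8 of 24 shNAT10 peaks (33.3%, 18.0% to 53.3%) on subunit genes held the repeat, against 52.2% and 51.3% of the whole lists.

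Other genes with a peak in both lists included NDUFA3, NDUFA5, NDUFA10, NDUFA11, NDUFA13, NDUFB3, NDUFB5, NDUFB9, NDUFS3, NDUFS4, NDUFS6, NDUFV1 and NDUFV2 of complex I, SDHA and SDHD of complex II, UQCRB, UQCRC1 and UQCRC2 of complex III, COX4I1, COX5A, COX7A2, NDUFA4 and NDUFA4L2 of complex IV, and ATP5MC1, ATP5MC2, ATP5PB, ATP5PF and ATP5PO of ATP synthase. COX4I1 carried 4 peaks in each list, and the highest of each, at 1900 and 44.7, did not overlap each other. Other pairs did, at 2.1 and 10.8, 9.04 and 44.7, and 3.46 and 30.0 in shCtrl and shNAT10 cells. ATP5PB, which fell, carried 2 in each list, at 177 and 7.76 in shCtrl and 666 and 45.4 in shNAT10 cells, overlapping at both places. NDUFAF2 had a peak in the shCtrl list alone (15.8).

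Expression and peaks were set side by side. Of 30 tested subunit genes with a peak in both lists, 3 were lower and 4 higher in shNAT10 cells (21.1% and 25.2% of all genes of that kind). Of 13 with a shCtrl peak alone, 3 were lower and 0 higher (19.6% and 21.3%), of 14 with a shNAT10 peak alone, 3 and 0 (24.1% and 19.9%), and of 23 with no peak, 6 and 1 (20.9% and 16.8%). The median log2 fold changes of these groups were -0.11, -0.22, -0.22 and -0.25. The groups are small, and no test was made of these counts.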

How the data were processed

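The libraries, of PANC-1 cells with a control vector or an shRNA against NAT10, were grouped by their labels. For RNA-seq, the submitters' processing notes name HISAT2 2 and HTSeq 0.11.0 on GRCh38, and the authors deposited FPKM values, 1 column per library. For acRIP-seq, the authors deposited 1 peak list per group, giving for every peak a ratio (fold enrichment, IP to input) and a p-value. The lists also hold the logarithm of the p-value and of the false discovery rate, which were not used as scores. The peak caller and the strand setting of the counting are not given in the sources used here.

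Genes and transcripts were taken from GENCODE release 29, where 58039 of 58302 gene identifiers were found. Whole reads were recovered from the FPKM with the annotated lengths (tolerance 0.001 reads), for 15831720 to 23521762 reads per library, and were used in the voom alternative. The 12982 genes that reached 1 FPKM in 3 or more libraries were fitted on log2(FPKM + 0.1) in limma 3.58.1 (R 4.3.3), using a mean-variance trend, and p-values were adjusted by Benjamini-Hochberg. On this scale the change of low genes is understated. An exact permutation test of 3 libraries against 3 cannot go below p = 0.1 and was not used. The steps were tested on simulated data. Replicate numbers are taken from the labels.

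Named with values are the highest and lowest gene of each complex, the 3 largest rises and falls that passed in each complex, genes past 2-fold, genes with a peak in both lists, the highest peak of each list and the paralog families. Further genes are named as core or catalytic subunits, or from the pathway lists, after their values were seen. Some genes and sequences are not reported here by name, though counts over all members include them. Members and lists were chosen with earlier results of these data known. Intervals of shares are 95% Wilson intervals from SciPy 1.17.1 (Python 3.11.15, NumPy 2.4.6, pandas 2.3.3); plots were made in matplotlib 3.10.9. Alternatives were a pseudocount of 1, TPM, median centring, quantile normalization, no filter, an FPKM minimum of 5, a spline correction for transcript length and GC content (11013 genes, 84.8% of those tested), no trend, voom on the recovered reads, a replicate block, each library left out, and for peaks the 50% with the highest enrichment, the 50% with the lowest p-values, genes assigned by exon overlap and a reciprocal overlap of 50%. The correction with shCtrl replicate 2 left out, and the sums without that library and as TPM, were added after seeing the data.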

Additional observations from a re-analysis of the deposited data

How the results depend on the processing

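The fall of NAT10 passed under every alternative run. For the subunit genes, the count of lower genes was 15 and became 9 without the filter on expression, and the count of higher genes was 5 and became 10 as TPM, 8 with quantile normalization, 15 with the length and GC correction and 26 when shCtrl replicate 2 was left out as well. Leaving out 1 library at a time gave 6 to 31 lower genes (6 without shNAT10 replicate 3, 31 without shCtrl replicate 1) and 3 to 12 higher genes (12 without shCtrl replicate 2). The 3 genes past 2-fold became 1 at a minimum FPKM of 5 and 1 with a pseudocount of 1. The median log2 fold change of complex I went from -0.25 to -0.05 with the correction and to -0.01 with shCtrl replicate 2 left out as well, where that of complex III became 0.09. That of complex II became 0.39 as TPM and 0.20 with the correction. The cause was not tested. Of 252 alternative values for the 15 genes named as changed, 217 kept their direction and their call, 35 lost the call and 0 reversed.

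No clear sign was seen that replicate numbers pair the libraries. Same-numbered libraries correlated at -0.04, 0.06 and 0.11 in their deviations from the group means, and not every library correlated best with its own number. With the replicate block, 16 subunit genes were lower and 4 higher, and NDUFA5 lost its call (adjusted p = 0.0531 by limma).

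Among peaks, the 50% with the highest enrichment left 14 subunit genes with a shCtrl peak, 19 with a shNAT10 peak and 5 with both, and 2 overlapping shCtrl peaks. The 50% with the lowest p-values left 25, 28 and 13. No read numbers come with the peaks, so the depth behind any 1 of them is unknown.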
